A study of Caenorhabditis elegans with 4 samples.

Results

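The proneural basic helix-loop-helix (bHLH) genes considered here are 6 transcription factor genes of Caenorhabditis elegans, taken by gene name from a table of 37812 gene rows. They are hlh-2, lin-32, hlh-3, hlh-14, ngn-1 and cnd-1, each found in 1 row, and all 6 were tested by the authors, as were 10703 rows in all. RNA came from mixed early embryos of wild-type strain N2, between the 1-cell and the 350-cell stage, released by bleaching from adults that had been fed OP50, a standard food bacterium, for 72 h. Control RNAi used L4440, the empty vector, in 2 libraries, and the other 2 libraries came from RNAi against sig-7, whose product is a cyclophilin of the nucleus that also carries an RNA-binding motif. No mutant allele or transgene is named in the labels for either group, and the sources used here do not say how or when the RNAi was delivered. The authors deposited 1 pooled value per group in FPKM (fragments per kilobase of transcript, relative to mapped fragments), so the spread between libraries and the depth of each library are unknown. The labels do not tie the libraries to separate cultures, so the error behind the deposited test may be technical. The target sig-7 was at 39.8 FPKM under control RNAi and 8.72 FPKM under sig-7 RNAi, leaving 21.9% of the control level.

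Proneural bHLH proteins start neuronal development in many animals. They bind E-box DNA sites as pairs of unlike proteins, in which a tissue-restricted class II protein joins a broadly present class I partner called an E protein. In C. elegans, HLH-2 is the E protein. The class II members are LIN-32, of the atonal class, HLH-3 and HLH-14, of the achaete-scute class, NGN-1, a neurogenin, and CND-1, of the NeuroD class. Each acts in particular neuronal lineages of the worm, and hlh-2 is also used outside the nervous system.

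Of the 6 genes, hlh-2 and cnd-1 were lower in sig-7 RNAi at q < 0.05 in the authors' deposited table, and none was higher. The 2 genes with a higher value, hlh-3 and hlh-14, had unadjusted p-values of 0.691 and 0.919 by Cuffdiff in the authors' deposited table. That is 2 of 6 genes called lower, against 17.3% of all tested rows called lower and 11.2% called higher, and with so few members no reading is made of the difference. The achaete-scute genes hlh-3 and hlh-14 were at nearly the same pooled value in both groups. The values of ngn-1 and lin-32 were also lower in sig-7 RNAi, and neither passed the test. The plot of the 6 genes shows these values side by side.

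**Figure D1:**
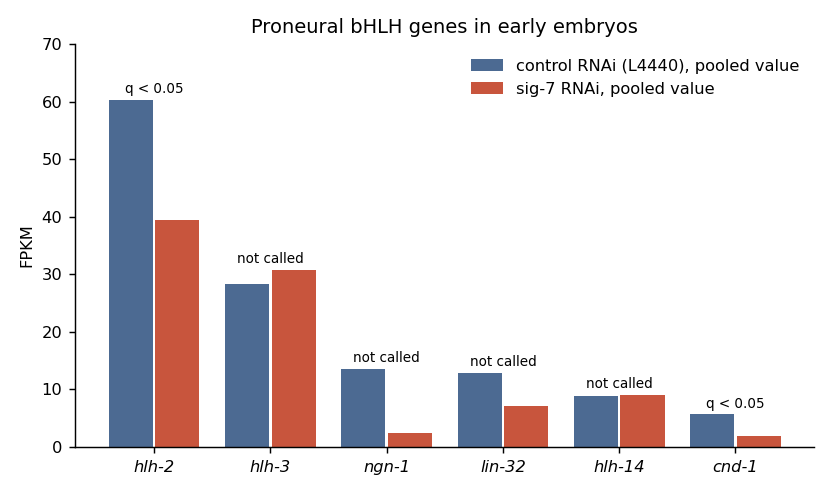
Pooled FPKM of each proneural gene (vertical axis, linear from 0) in control RNAi (blue) and sig-7 RNAi (red), ordered by the control level. Bars are single pooled values with no error of their own, and the words above each pair give the call in the authors' deposited table: hlh-2 (60.3 and 39.4 FPKM) and cnd-1 (5.63 and 1.87 FPKM) passed it.

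The E protein gene hlh-2 had the highest level of the 6 genes in both groups. It lies on chromosome I at 7191238 to 7193905 (ce10, the locus in the deposited table). Its level was 60.3 FPKM under control RNAi, above 89.5% of the tested rows, and 39.4 FPKM under sig-7 RNAi. The fall was 1.53-fold, leaving 65.3% of the control level, with a log2 ratio of -0.61 and q = 0.0270 in the authors' deposited table. The deposited test statistic was read as a log ratio divided by its standard error, and the error it then implies for hlh-2 is 0.226 on the log2 scale. The 95% interval from that error runs from -1.06 to -0.17. This call was the less secure of the pair, since it was lost at q < 0.01, where 13.1% of tested rows were called lower.

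hlh-2 has 2 rows in the isoform table. The main isoform held nearly all of the signal, at 60.0 FPKM under control RNAi and 39.4 FPKM under sig-7 RNAi, and it too fell (q = 0.0282 in the authors' deposited table, where 16.4% of tested isoform rows were called lower). The other isoform was at 0.239 FPKM under control RNAi, was listed at 0 in sig-7 RNAi and was not tested. The other 5 genes have a lone isoform row each, equal to the gene row in both groups.

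The NeuroD gene cnd-1, which acts early in the lineages of ventral cord motor neurons, had the lowest level of the 6 genes in both groups. It lies on chromosome III at 5240696 to 5242005 (ce10). The level went from 5.63 FPKM under control RNAi to 1.87 FPKM under sig-7 RNAi, a 3.01-fold fall. In the authors' deposited table the log2 ratio was -1.59 with q = 0.00562, and this call was kept at q < 0.01. The implied standard error was 0.483 and the interval ran from -2.54 to -0.64 on the log2 scale, which is between 0.172 and 0.640 times the control level. The deposited locus covers 1310 bp, while the WBcel235 annotation gives cnd-1 a span of 4049 bp and a longest coding transcript of 3318 bp. The value may therefore stand for part of the annotated gene.

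The achaete-scute genes had near-equal values in the groups. hlh-3, which is known for its part in the differentiation of the HSN motor neurons, was at 28.4 FPKM under control RNAi and 30.7 FPKM under sig-7 RNAi. Its log2 ratio was 0.12 with q = 0.914 in the authors' deposited table, and the implied interval ran from -0.45 to 0.69. In linear terms that is between 0.730 and 1.61 times the control level. hlh-14, which is needed in a lineage that makes the PVQ, HSN and PHB neurons, was at 8.83 FPKM under control RNAi and 9.04 FPKM under sig-7 RNAi. For hlh-14 the log2 ratio was 0.03 with q listed as 1.00 after rounding in the authors' deposited table, and the interval ran from -0.62 to 0.68.

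Missing the threshold does not show that hlh-3 and hlh-14 kept their level. Their intervals include falls of up to 0.45 and 0.62 on the log2 scale, respectively, and the interval of hlh-2 overlaps both. The interval of cnd-1 does not overlap that of hlh-3 and ends at -0.64, just below the lower end for hlh-14. No test of the difference between genes was made. Summed over the table, FPKM under sig-7 RNAi was 1.69 times the control total, and with both groups scaled to equal totals the log2 ratios with the pseudocount turn to -0.61 for hlh-3 and -0.63 for hlh-14, while the ratios of the other 4 genes stay below 0. Scaled to equal median FPKM instead, they are 0.40 for hlh-3 and 0.30 for hlh-14, and the other 4 again stay below 0. The direction for hlh-3 and hlh-14 thus depends on the scaling. Both genes lie on chromosome II, hlh-3 at 9086550 to 9087553 and hlh-14 at 5737916 to 5739772 (ce10).

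**Figure D2:**
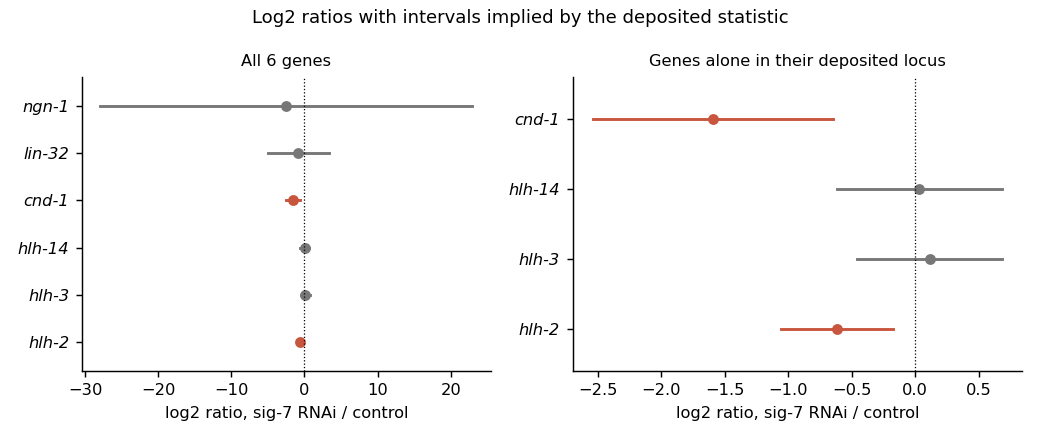
Log2 of sig-7 RNAi over control (horizontal axis) for all 6 genes on the left and, on a narrower scale, for the 4 genes alone in their deposited locus on the right. Points are the deposited ratios, lines are 95% intervals from the implied standard error, red marks q < 0.05 and the dotted line marks no difference. The line of ngn-1 runs from -27.9 to 22.9, while those of the 4 genes on the right all lie between -2.54 and 0.69.

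ngn-1, the neurogenin gene, had the largest difference in level of the 6 genes and no call. It was at 13.5 FPKM under control RNAi and 2.42 FPKM under sig-7 RNAi, 5.61-fold lower in value, and with a pseudocount of 1 FPKM its log2 ratio stood at the percentile 3.54 of the tested rows. The log2 ratio of -2.49 carries a test statistic of 0.192 and q listed as 1.00 after rounding in the authors' deposited table. The implied standard error was 12.98 on the log2 scale, with an interval from -27.9 to 22.9, which allows almost any change. The deposited locus of ngn-1 is not that of a single gene. It runs from 1956725 to 4526957 on chromosome IV (ce10), a width of 2570233 bp, and 626 gene rows were given the same locus, whereas the WBcel235 annotation gives ngn-1 a span of 2210 bp.

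No row of that locus was called. Among its 214 tested rows, 0 had q < 0.05 in the authors' deposited table by Cuffdiff, 0 had an unadjusted p under 0.05, and the lowest q was 0.710. The values themselves were spread to both sides, with 115 rows lower and 99 higher in sig-7 RNAi and a median log2 ratio of -0.06 with the pseudocount. ngn-1 was among the 14 rows with the lowest ratios there, leaving out rows listed at 0 in 1 group. The locus also holds zag-1, a zinc finger homeobox gene of neuronal differentiation, at 3.14 and 0.736 FPKM, and the TFEB-class bHLH gene hlh-30, at 16.1 and 2.46 FPKM.

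lin-32, the atonal gene needed for touch receptor neurons and male ray neurons, also shares a wide deposited locus. Its level was 12.9 FPKM under control RNAi and 7.18 FPKM under sig-7 RNAi, which is 55.9% of the control value. The log2 ratio was -0.84 with q = 0.914 in the authors' deposited table. The implied standard error was 2.12, and the interval from -4.99 to 3.31 includes both large falls and large rises. Its deposited locus, chromosome X from 2014398 to 2276229 (ce10), is shared by 90 rows, while the annotated span in WBcel235 is 1068 bp. Of the 31 tested rows of that locus, 2 were called, both lower. Unlike in the locus of ngn-1, most values there were lower in sig-7 RNAi (23 rows, against 8 higher, with a median log2 ratio of -0.51 with the pseudocount), and 16 rows, lin-32 included, had a ratio as low as its own or lower. lin-32 is the only X-linked gene of the 6, and of all tested rows 34.4% on the X chromosome were called lower, against 14.5% on the other chromosomes.

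Calls varied with this sharing across the whole table. Among tested rows alone in their locus, 35.9% were called in either direction, and the median implied standard error was 0.292. Among the 2160 tested rows whose locus is shared by over 20 rows, 1.25% were called and the median implied standard error was 3.99. The median log2 ratio with the pseudocount was 0.03 in the former and -0.02 in the latter. Of rows at 5 FPKM or more in control RNAi that were lower by at least 1.5 on the log2 scale, 461 of 475 were called when alone in their locus, and 13 of 150 when the locus was shared by over 20 rows. The limit of 20 rows was chosen after the values were seen.

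Rows with values like those of ngn-1 show the same contrast. With a control level within 1.5-fold of that of ngn-1 and a log2 ratio within 0.3 of its own, 48 of 49 rows in loci of 20 or fewer rows were called, and 1 of 11 in loci shared by over 20. For lin-32 the same comparison gave 99 of 156 and 1 of 37. It gave 53 of 60 and 1 of 26 for cnd-1, and 44 of 97 and 2 of 22 for hlh-2. The genes hlh-2, hlh-3, hlh-14 and cnd-1 are each alone in their locus, and no gene of the WBcel235 annotation overlaps the span of any of the 6. Whether ngn-1 and lin-32 changed could not be read from the deposited test.

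**Figure D3:**
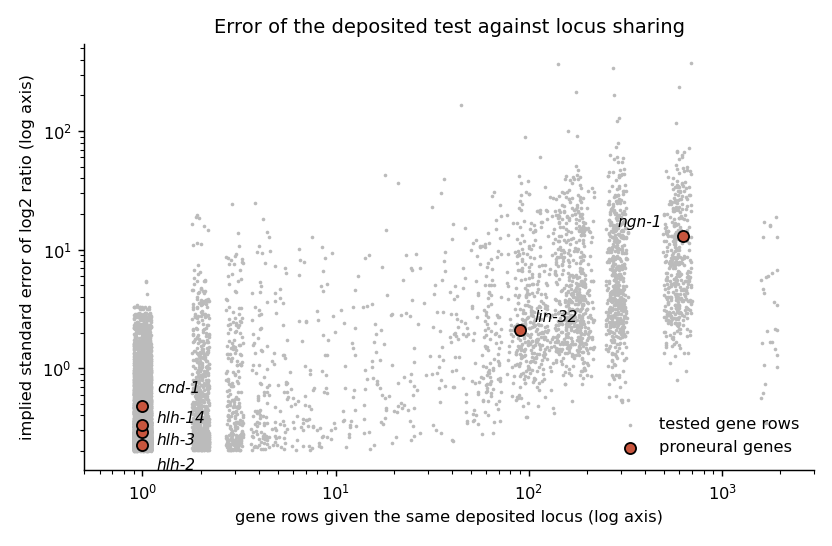
Implied standard error of the log2 ratio (vertical, log axis) against the number of gene rows given the same deposited locus (horizontal, log axis, points spread slightly sideways) for tested rows above 0 in both groups (grey) and the proneural genes (red). The genes alone in their locus have errors from 0.226 (hlh-2) to 0.483 (cnd-1), lin-32 with 90 rows has 2.12, and ngn-1 with 626 rows has 12.98.

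The order of the levels differed between the groups. In control RNAi, per length, hlh-2 was followed by hlh-3, ngn-1, lin-32, hlh-14 and cnd-1. In sig-7 RNAi the order was hlh-2, hlh-3, hlh-14, lin-32, ngn-1 and cnd-1, with ngn-1 moving from the third place to the fifth. The control values of ngn-1 and lin-32, 13.5 and 12.9 FPKM, are close, and their order cannot be told apart without a spread. The median of all tested rows was 11.1 FPKM under control RNAi, so that 4 of the 6 genes lay above it.

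The class II genes together stood at 69.2 FPKM under control RNAi and 51.2 FPKM under sig-7 RNAi. Set against their partner gene hlh-2, the class II sum was 1.15 times the hlh-2 level in control RNAi and 1.30 times in sig-7 RNAi. Leaving out ngn-1 and lin-32, it was 0.711 and 1.06 times the hlh-2 level. hlh-3 made up 41.0% of the class II sum in control RNAi and 60.0% in sig-7 RNAi, while ngn-1 made up 19.6% and 4.72%. These ratios of pooled levels have no error, and no test of them was possible.

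Genes whose pair of values lay closest to each member were found over the 2 pooled values, by distance in log2(FPKM + 1). For hlh-3 the closest was mes-6, at 28.4 and 30.7 FPKM, which encodes a Polycomb-class protein. The closest to cnd-1 was pqn-47, at 5.65 and 1.91 FPKM. For lin-32 the closest was C56C10.10, at 12.9 and 7.09 FPKM, which is alone in its locus and was called (q = 0.0163 in the authors' deposited table). The 2 closest to ngn-1 were F37C4.6, which shares its locus and was not called, and the F-box gene fbxb-46, at 13.7 and 2.32 FPKM in a locus of 2 rows, which was called (q = 2.22e-08 in the authors' deposited table). hlh-2 was closest to F26B1.2, at 62.5 and 39.1 FPKM, with q = 0.184 in the authors' deposited table, and hlh-14 was closest to K06A5.1, at 8.75 and 9.02 FPKM.

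Of 14 genes that worm genetics places downstream of proneural factors, or against them, 10 were tested, of which 6 were called lower and 0 higher, beside 17.3% and 11.2% of all tested rows. By their folds, ces-1, a Snail-class gene whose product opposes HLH-2 and HLH-3 at the cell death gene egl-1, led with 3.05 and 0.352 FPKM, 8.69-fold lower. ceh-10, a homeobox gene of interneuron identity, was 8.46-fold lower. The other 4, named after their values were seen, were ces-2, a bZIP gene upstream of ces-1 (24.98 and 5.50 FPKM), the bHLH gene hlh-16 (11.2 and 2.80 FPKM), the POU homeobox gene unc-86 (2.03 and 0.420 FPKM) and unc-3, an EBF-class gene of motor neurons (0.830 and 0.231 FPKM). egl-1 itself did not pass the test, at 1.32 and 1.62 FPKM.

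Neuronal fate regulators made up the list with the most tested genes and the most calls. Of 28 genes 20 were tested, and all 20 had a lower value in sig-7 RNAi, of which 13 were called lower and 0 higher, beside 17.3% and 11.2% of all tested rows. Their median log2 ratio with the pseudocount was -1.33, against -0.03 for all tested rows. Falls were not particular to this list. Medians of the other lists ran from -1.98 for epidermis markers, of which 7 of 8 were called lower, to 0.36 for germline and maternal markers. The largest called falls among the regulators were those of the homeobox gene ceh-36 (14.4-fold) and egl-44, which belongs to the TEAD class (11.2-fold). A further 5 of the 20 lie in loci shared by over 20 rows, where log2 ratios ran from -4.46 (unc-30) to -1.08 (vab-7) and none was called. This list and that of targets and antagonists share 9 genes, so they are not separate observations.

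**Figure D4:**
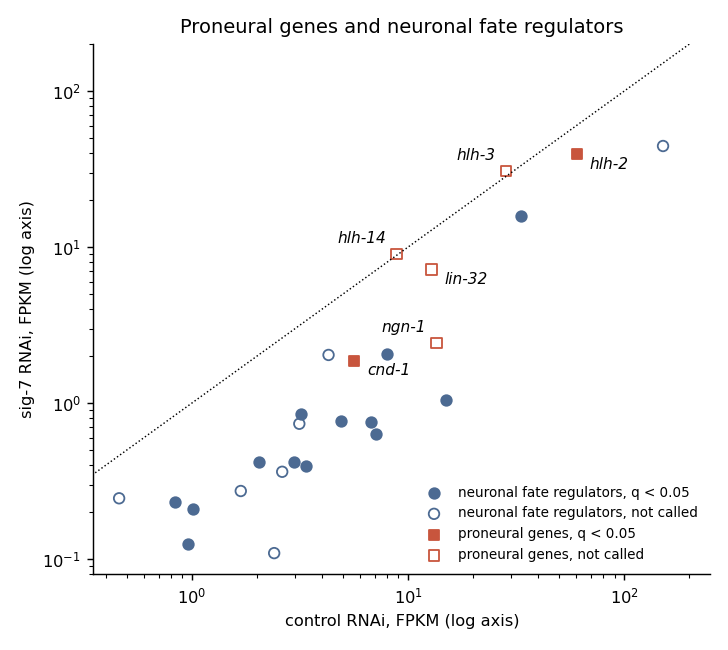
Pooled FPKM under control RNAi (horizontal, log axis) and sig-7 RNAi (vertical, log axis) for 20 tested neuronal fate regulators (blue circles) and the 6 proneural genes (red squares). Filled symbols had q < 0.05, open symbols did not, and the dotted line marks equal values. All 20 regulators lie below the line, as do hlh-2, cnd-1, lin-32 and ngn-1, while hlh-3 and hlh-14 lie on it or slightly above.

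Of 22 pan-neuronal genes 15 were tested, of which 2 were called lower and 0 higher, beside 17.3% and 11.2% of all tested rows. Their median log2 ratio with the pseudocount was -0.38. The genes unc-33 and unc-44 had no row under their name alone and are not counted. A tested row that names unc-44 together with other genes was called lower at q < 0.05. With so few genes no reading is made of the shares. The counted calls were those of unc-51 and unc-10. unc-51, an autophagy kinase gene also used in axon growth, was at 11.98 and 3.26 FPKM. unc-10, a presynaptic RIM gene, was at 0.464 and 0.129 FPKM.

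Of 17 tested genes of other bHLH and bHLH-PAS proteins, 5 were called lower and 2 higher, beside 17.3% and 11.2% of all tested rows, and from so few genes no reading is made of the shares. mdl-1, the Mad-class gene, was at 5.19 and 0.445 FPKM, 11.7-fold lower, and the Max-like gene mxl-3 was 5.64-fold lower. In contrast, mxl-1, which encodes the Max-like partner of MDL-1, was at 55.01 and 112.8 FPKM, 2.05-fold higher, and hnd-1, the Hand gene of early mesoderm, was 1.72-fold higher.

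The REF-1 family, Notch and Sox lists hold genes known to act with or against proneural genes, and each has too few calls to be set apart from the 17.3% lower and 11.2% higher over all tested rows. Of the REF-1 family and lin-22, which encode bHLH repressors, 6 were tested and 0 were called by Cuffdiff at q < 0.05 in the authors' deposited table, and 1 had an unadjusted p under 0.05. In the deposited values, without scaling to equal totals, 5 of these 6 were higher in sig-7 RNAi, with hlh-27 at 0.617 and 1.78 FPKM (q = 0.0523 in the authors' deposited table), and ref-1 alone was lower, at 12.2 and 11.4 FPKM. Among Notch pathway genes 3 of 11 tested were called lower and 1 higher. The receptor gene lin-12 was at 22.9 and 4.15 FPKM, 5.52-fold lower, the ligand gene apx-1 was 1.90-fold lower and the presenilin gene hop-1 1.72-fold higher. Among Sox genes, whose SoxB members act in neural progenitors of many animals, 1 of 3 tested was called, sox-2 at 17.8 and 3.21 FPKM.

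Markers of other cell types are given beside these values, with 17.3% of all tested rows called lower and 11.2% higher. The summed FPKM of 8 epidermis markers in sig-7 RNAi was 0.222 times that of control RNAi (7 of 8 tested called lower), that of 6 pharynx markers 0.339 times (2 of 5) and that of 8 intestine markers 0.434 times (3 of 7). Among the uncalled, 2 pharynx and 2 intestine markers lie in loci shared by over 20 rows, each over 2-fold lower in value. The sum of 8 muscle markers was 0.963 times the control sum, with 4 of 8 called lower and 1 higher. That sum is weighted to its most abundant gene, pat-3, at 110.8 and 88.9 FPKM and not called, and to hnd-1, the 1 called higher. The median log2 ratio of the muscle list with the pseudocount was -0.60. For 15 germline and maternal markers the sum was 1.33 times that of the control, with 1 of 15 called lower and 2 higher, and for 12 early zygotic markers it was 0.750 times, with 2 of 12 called lower and 1 higher. Most of the fall in the early zygotic sum was that of sdz-28, at 99.5 and 10.2 FPKM. The median log2 ratio of that list with the pseudocount was -0.07. Most members of the last 2 lists did not pass the test. At equal total FPKM the ratios of the sums run from 0.132 (epidermis) to 0.791 (germline and maternal). None of these markers was listed at 0 in either group. Their part in the values of the proneural genes was not tested. In bulk embryos, fewer cells of a type, a different mixture of stages and less RNA per cell cannot be told apart.

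**Figure D5:**
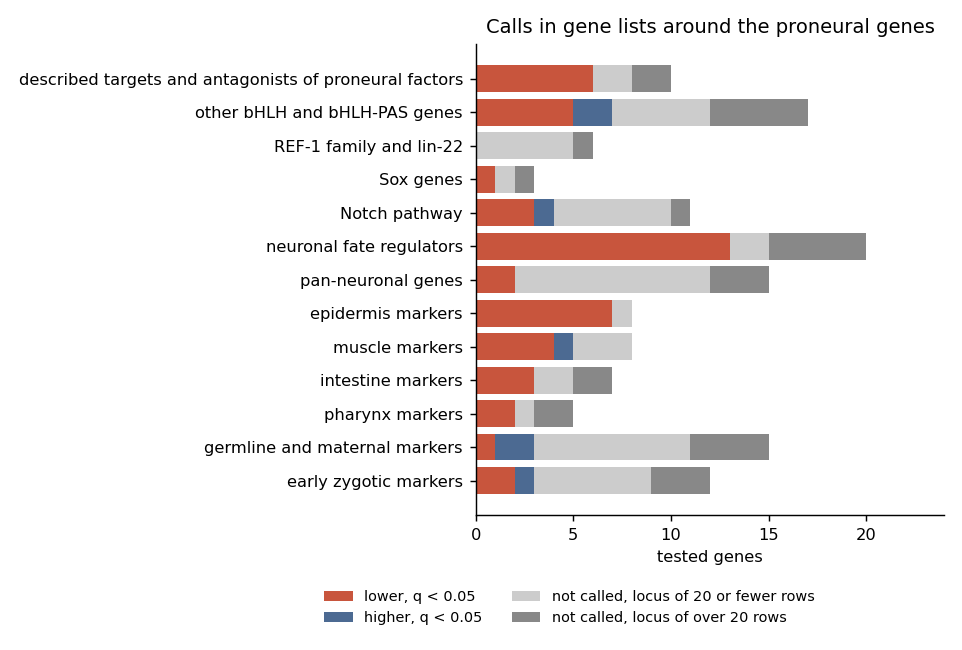
Number of tested genes (horizontal axis) in each list that were called lower (red) or higher (blue) at q < 0.05, or not called, with the uncalled genes divided by whether their deposited locus is given to 20 or fewer rows (light grey) or more (dark grey). Neuronal fate regulators (13 of 20) and epidermis markers (7 of 8) were called lower most often, while the REF-1 family had 0 calls.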

How the data were processed

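The submitters' processing notes name TopHat2, Cufflinks 2.1.1, Cuffdiff 2.0.2 and the build ce10. Annotation, settings and strand use were not given in the sources used here. Stranded libraries were made from total RNA after removal of ribosomal RNA, per the labels' protocols. The authors deposited FPKM values pooled over the 2 libraries of each group, with log2 ratios, test statistics, p-values and q-values, at the level of genes, isoforms and start-site groups. Infinite ratios are coded in these tables as very large numbers and were left out of the implied errors and of comparisons made on the deposited ratio. Rows with such ratios stayed in the call counts, their shares and the medians with the pseudocount.

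No test of replicates could be made from pooled values, so calls are q < 0.05 in the authors' deposited table, over 10703 tested rows. The deposited p-value equalled the 2-sided normal p of the deposited statistic within 0.001 in 100% of 10098 tested rows with finite ratios. This shows how p follows from the statistic, not what the statistic is made of. The implied standard error assumes that the statistic is a log ratio over its error. It is the log2 ratio divided by the statistic, without sign, since for the 6 genes their signs are opposite. It reflects the authors' error model, not a spread measured here. Folds are ratios of the deposited FPKM, and medians use log2 with a pseudocount of 1 FPKM, which understates changes of low genes. Positions count from base 1. Gene spans were matched by name in WBcel235, and no coordinate of that build is given. In each of 7 gene lists, the 2 largest called falls and rises were named, and 6 marker lists were summed. Members, lists and rules were chosen with earlier results of these data known. Scripts used Python 3.11.15 and pandas 2.3.3 and were checked on simulated data.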

Additional observations from a re-analysis of the deposited data

How the results depend on the processing

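The values are pooled, so leaving out a replicate was not run, depth limits are unknown, and q-values could not be refitted under another scaling. No paired analysis was possible because the deposited tables hold 1 value per group and none per library. At q < 0.01, 1 proneural gene was called lower, hlh-2 losing its call, and Notch genes called higher went to 0, germline and maternal markers to 0 lower and 1 higher, and early zygotic markers to 0 higher. With a floor of 1 FPKM, 1 pan-neuronal gene was called lower. Germline and maternal markers called lower were 0 in the isoform and start-site tables. Scaling both groups to equal total FPKM lowers log2 ratios without a pseudocount by 0.75 and those with it by less. Calls at this scaling keep the deposited q and take only their direction from the scaled values, so they are not tests. Counted so, 2 germline and maternal markers were lower and 1 higher. With the pseudocount, hlh-3 turned to -0.61 and hlh-14 to -0.63, while at equal median FPKM they stood at 0.40 and 0.30. The cause of the other differences was not tested. The median log2 ratio of the 6 genes, -0.68, was -0.72 with a pseudocount of 0.1 FPKM, -0.73 with none, -1.36 at equal total FPKM, -0.40 at equal median FPKM and -0.60 without lin-32. It was -0.29 without ngn-1 and lin-32, an alternative chosen after seeing the data. All other alternatives, 280 of 298, kept direction and side of the threshold, or for counts stayed within 1.5 times. Many of these could not have come out otherwise, so the total is no measure of robustness. Rescaled settings keep the deposited q, and a count of 0 stays 0 under a stricter threshold. Every proneural gene but hlh-2 has an isoform row equal to its gene row. The 280 include the recomputed Benjamini-Hochberg adjustment and, chosen after seeing the data, the restriction to loci of 20 or fewer rows, which could not remove hlh-2 or cnd-1. They also include losses in the longer lists. At q < 0.01, genes called lower went from 6 to 4 for targets and antagonists and from 13 to 9 for neuronal fate regulators. With the floor of 1 FPKM they went to 5 and 11.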

Other observations

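The implied standard errors of the deposited test had a sharp lower edge. Over tested rows above 0 in both groups the lowest was 0.202 on the log2 scale, and 23.3% of the rows lay under 0.25. hlh-2, at 0.226, is close to that edge.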
